A study of Mus musculus with 11 samples.

Results

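The genotype comparison at 6 months was made on the 6 mice of that age among the 11 mice of the series. It set 3 R182C-TgN3 mice (genotype TgN3 R182C, line Tg350, labelled CADASIL) against 3 WT-TgN3 mice (genotype TgN3, line Tg100, labelled control). Both lines keep the mouse Notch3 gene and carry human NOTCH3 as a transgene, in the first line as the R182C variant and in the second as the wild type. Each genotype comes from a single transgenic line, so the variant and whatever else differs between the lines cannot be told apart. The level of the transgene is among these differences, as its counts below show, so variant and transgene level cannot be told apart in any comparison here. All mice were untreated. The mice were labelled with 2 batch dates: 2 mice per genotype had the first date and 1 mouse per genotype had the second. Each genotype had 1 male and 2 females, and the male of each had the first date, so genotype was balanced over date and over sex. Brain microvascular fragments were captured with CD31 antibodies on magnetic beads, digested to single cells and loaded as 1 droplet library per mouse. Mice are named by the number in their label, so R182C-TgN3 3 and WT-TgN3 3 are the pair of the second date.

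NOTCH3 is a receptor of vascular smooth muscle cells and pericytes that is cut on contact with a ligand of a neighbouring cell, and its inner part then switches on target genes together with RBPJ. In CADASIL, an inherited small vessel disease of the brain, mutations change the number of cysteines in the outer part of NOTCH3, which gathers around smooth muscle cells of small arteries. Endothelial cells form the blood-brain barrier and present Notch ligands to the mural cells, while microglia are the resident immune cells of the brain and in part lie along the vessels.

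Cells were chosen by counts of unique molecular identifiers (UMIs, one per captured RNA molecule) of a few genes. Of 33010 barcodes in the 6 libraries, 29997 were kept for having at least 500 genes and no more than 10% mitochondrial UMIs, out of 61625 kept in all 11 libraries. The endothelial gate took barcodes with at least 4 UMIs of Cldn5, Flt1 and Itm2a together and held 21126 cells. The microglia gate took barcodes with at least 4 UMIs of P2ry12 and Cx3cr1 and at most 3 of Cldn5 and Flt1, and held 5983 cells. The smooth muscle gate took barcodes with at least 2 UMIs of Myh11 and at least 20 of Acta2, Tagln and Myh11, and held 1328 cells. The choice used no genotype. UMIs were summed per mouse and gate, levels are given as CPM, a gene's UMIs scaled to a common library total with TMM factors, without ribosomal, mitochondrial, Gm and Rik genes, and values are listed in the order of mice 1, 2 and 3. Genotypes were compared with edgeR's quasi-likelihood test with batch date as a block. Where such a fit leaves out 1 mouse of the second date, the other carries no weight in the genotype difference. It then rests on the 2 against 2 mice of the first date. Fold changes are log2 values of R182C-TgN3 over WT-TgN3 with their standard error (SE), and n was 3 mice per genotype in the main fits at 6 months. A mouse with under 20 cells in a gate was left out of a fit. With at most 5% mitochondrial UMIs this took R182C-TgN3 2, with 18 cells, out of the smooth muscle fits.

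The kept barcodes of each mouse held between 16772372 and 41978560 UMIs. The smallest sum tested was that of the smooth muscle gate in R182C-TgN3 2, with 722629 UMIs from 80 cells. Xist and Ddx3y matched the labelled sex in 6 of 6 mice. The 6 libraries shared barcodes: between 62 and 350 for each of the 15 pairs, up to 10.2% of the smaller library, against 5 to 38 for the 40 other pairs of libraries in the series. In the gates, such barcodes made up from 1.01% to 10.6% of the cells of a mouse, and the highest share was in the endothelial gate of R182C-TgN3 2. No doublet caller was run. Of the smooth muscle gate, 55.8%, 17.5% and 35.1% of the cells of the R182C-TgN3 mice and 29.5%, 18.7% and 42.1% of those of the WT-TgN3 mice also passed another gate, nearly always the endothelial gate.

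Each gate was chosen on markers of its cell type, so the presence of those follows from the choice. Markers that were not used for it were also counted, with 798 to 1052 CPM per mouse for Pecam1 in the endothelial gate, 614 to 914 CPM for Tmem119 in the microglia gate and 536 to 745 CPM for Lmod1 in the smooth muscle gate. With the genes of the choice among them, the 10 listed endothelial markers summed to 17637 to 20684 CPM per mouse in the endothelial gate, the microglial markers to 19632 to 26539 CPM in the microglia gate and the smooth muscle markers to 28866 to 39237 CPM in the smooth muscle gate. Endothelial markers also summed to 5996, 2667 and 5839.6 CPM in the smooth muscle gate of the R182C-TgN3 mice and to 3945, 3233 and 5708 CPM in that of the WT-TgN3 mice. Transcripts of choroid plexus (Ttr, Enpp2, Folr1, Kl and Prlr) differed widely between mice in every gate. In the smooth muscle gate they summed to 3759, 20.7 and 1247 CPM in R182C-TgN3 mice and 538, 129 and 167 CPM in WT-TgN3 mice, and in the microglia gate to 59.7, 4299 and 2142 CPM and 106, 166 and 1109 CPM. Haemoglobin and the other erythroid markers summed to 2109.8, 11993 and 7368 CPM in the endothelial gate of R182C-TgN3 mice and 3833, 4635 and 3687 CPM in that of WT-TgN3 mice.

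The shares of kept barcodes in the 3 gates overlapped between genotypes. The endothelial gate held 76.3%, 73.3% and 73.6% of kept barcodes in R182C-TgN3 mice and 68.1%, 75.9% and 58.2% in WT-TgN3 mice, with means of 74.4% ± 1.68 (SD) and 67.4% ± 8.87 (SD). The microglia gate held 15.6%, 17.2% and 19.0% against 22.4%, 10.2% and 32.7%. The WT-TgN3 mice held both the lowest and the highest microglial share, and the R182C-TgN3 mice lay between them. The smooth muscle gate held 5.92%, 2.69% and 3.94% against 4.18%, 6.16% and 3.13%. The differences of means were 6.98, -4.51 and -0.304 percentage points, with p = 0.333, 0.667 and 0.833 in a two-sided exact permutation test within batch dates, whose smallest possible p was 0.167 with 12 splits. Within the first date the endothelial share differed by 2.8 points and within the second by 15.3 points, and the microglial share by 0.0736 and -13.7 points. A share moves with every other cell type captured, so fewer cells of one type and more of another cannot be told apart.

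**Figure D1:**
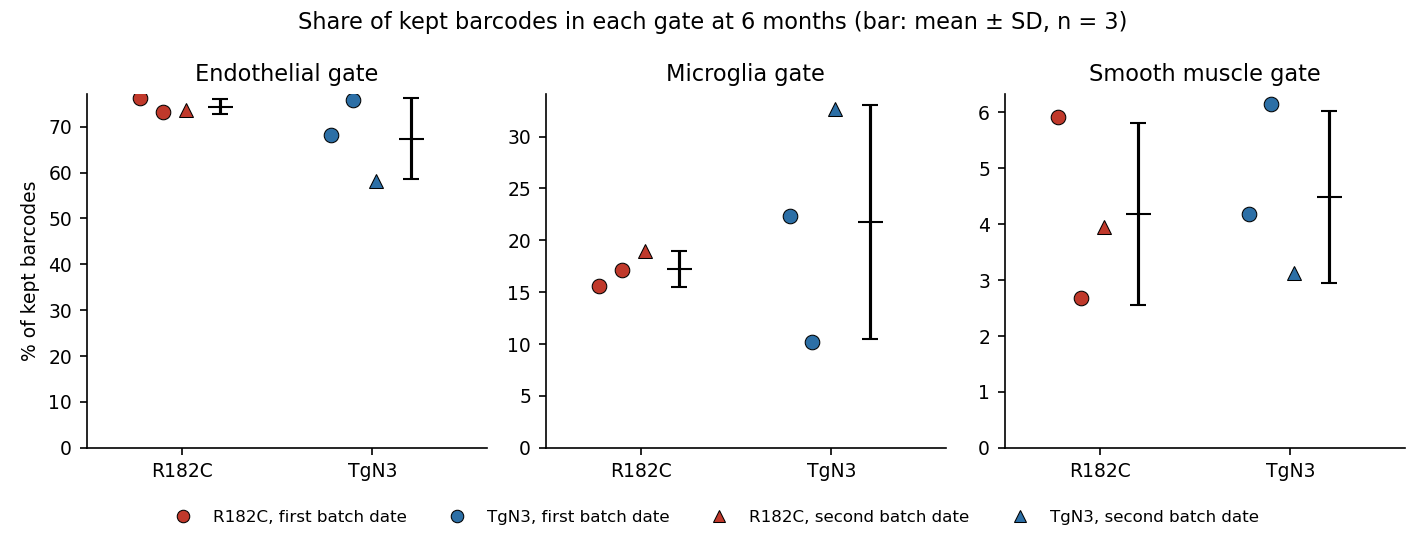
Percentage of kept barcodes in each gate at 6 months (y axis, from 0) by genotype (x axis), with 1 point per mouse, circles for the first batch date, triangles for the second, and black bars for mean ± SD of 3 mice. The WT-TgN3 mouse of the second date stands at 58.2% in the endothelial gate and 32.7% in the microglia gate, and the genotypes overlap in every panel.

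The transgene was counted in each mouse, and its level separated the genotypes, each a single line, in the smooth muscle and endothelial gates. In smooth muscle cells, NOTCH3 stood at 184, 257 and 362 CPM in R182C-TgN3 mice and 23.8, 85.6 and 26.4 CPM in WT-TgN3 mice, from 345, 149 and 711 against 23, 239 and 37 UMIs. Every R182C-TgN3 mouse lay above every WT-TgN3 mouse. The log2 fold change was 2.47 ± 0.41, with a 95% interval of 1.58 to 3.35 and an unadjusted p of 3.41e-05. Over all genes tested the edgeR adjusted p was 0.35, so the transgene did not pass the threshold of 0.05 in the fit with batch date as the only block. With sex beside batch date in the model it was 0.00824, with barcodes of more than 1 gate left out it was 0.000118, and over the 17 alternative fits it passed in 7 and ranged from 2.15e-21 with no filter on low counts to 1.00 with DESeq2 and without WT-TgN3 3. It was the gene with the smallest p of the gate. Within the first date the log2 ratio of means was 2.01 and within the second 3.78.

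Mouse Notch3 (chr17:32120820-32166852, mm10 as for all positions here) overlapped between genotypes in the same cells, at 485, 842 and 632 CPM in R182C-TgN3 mice and 745, 737 and 647 CPM in WT-TgN3 mice. Its log2 fold change was -0.12 ± 0.23 (95% interval -0.62 to 0.38). Human NOTCH3 made up 27.5%, 23.4% and 36.4% of all NOTCH3 and Notch3 UMIs of the smooth muscle gate in R182C-TgN3 mice and 3.09%, 10.4% and 3.92% in WT-TgN3 mice. Their means were 29.1% ± 6.69 (SD) and 5.80% ± 4.01 (SD), the groups did not overlap, and the exact permutation p within dates was 0.167, the smallest the design allows. The counting error of single mice was small beside this, with Wilson 95% intervals of 20.2% to 26.8% for the lowest R182C-TgN3 mouse and 9.22% to 11.7% for the highest WT-TgN3 mouse. The 2 counts are tags from the 3' end of each RNA and are not scaled by length, and how reads shared by both sequences were assigned is not given in the sources used here.

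In the endothelial gate NOTCH3 stood at 22.8, 11.9 and 22.2 CPM against 6.27, 5.43 and 4.99 CPM, again with no overlap, for a log2 fold change of 1.77 ± 0.27 (unadjusted p = 0.000286, edgeR adjusted p = 1.00). DESeq2 called it there with an adjusted p of 8.80e-05, and in the other 16 alternatives its adjusted p was 0.153 or more. Mouse Notch3 was at 45.7, 22.2 and 33.8 CPM and 36.2, 27.2 and 39.2 CPM and overlapped. The human share was 33.3%, 34.9% and 39.7% in R182C-TgN3 mice and 14.8%, 16.6% and 11.3% in WT-TgN3 mice, with means of 36.0% ± 3.29 (SD) and 14.2% ± 2.71 (SD). Smooth muscle markers were present in this gate, at 1597, 265 and 990.2 CPM and 787, 826 and 924 CPM. The R182C-TgN3 mouse with the lowest of these sums also had the lowest endothelial NOTCH3 level of its genotype. In WT-TgN3 mice the order was the reverse, with the highest sum in the mouse with the lowest NOTCH3 level. The part of smooth muscle transcripts in these values was not tested. With barcodes of more than 1 gate left out, the endothelial log2 fold change of NOTCH3 was 1.67. In the microglia gate NOTCH3 was too rare to be tested, with 7, 12 and 21 UMIs in R182C-TgN3 mice and 2, 6 and 6 in WT-TgN3 mice, and Notch3 had 12, 19 and 24 against 2, 35 and 45 UMIs.

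**Figure D2:**
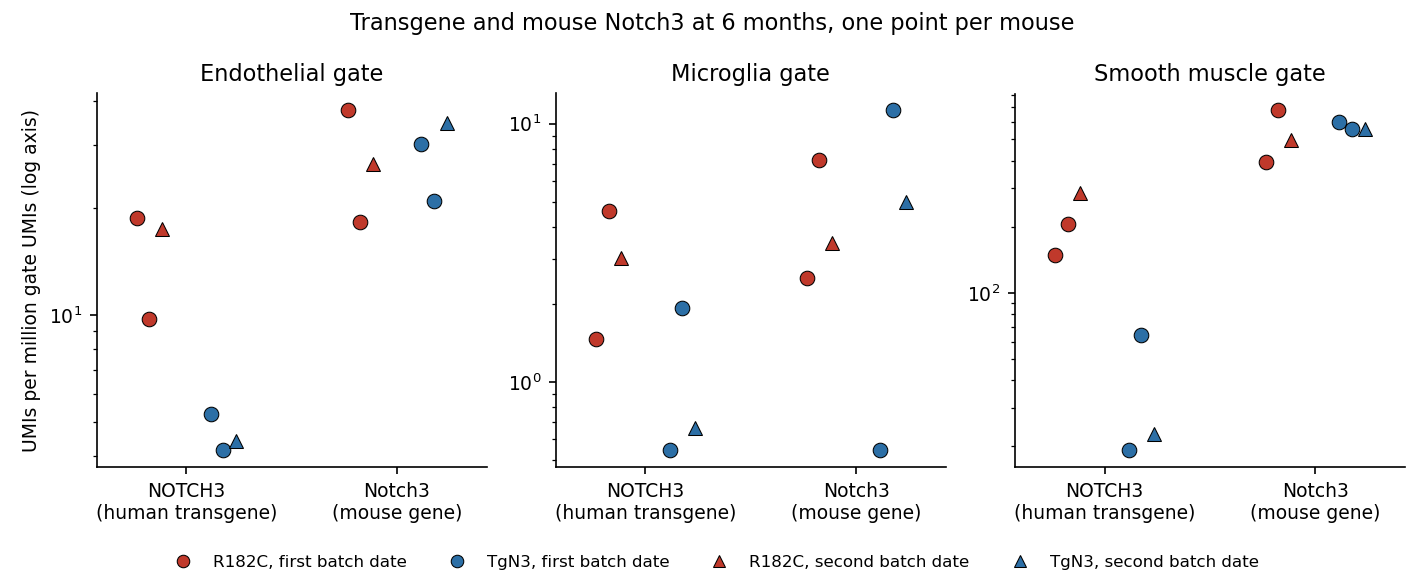
NOTCH3 (human transgene) and Notch3 (mouse gene) levels at 6 months, scaled to the total UMIs of the gate without TMM, on a log y axis with its own range in each panel, by gene and genotype (x axis), with 1 point per mouse and triangles for the second batch date. NOTCH3 separates the genotypes in the endothelial and smooth muscle gates, while Notch3 overlaps in every gate.

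Across all genes, no gene passed an edgeR adjusted p of 0.05 in any of the 3 gates. In the endothelial gate 0 of 13366 genes passed (0%), 82 had an unadjusted p under 0.05 (0.613%), and 443 had groups that did not overlap (3.31%). In the microglia gate 0 of 10604 genes passed (0%), 364 had an unadjusted p under 0.05 (3.43%) and 797 did not overlap (7.52%). In the smooth muscle gate 0 of 10212 genes passed (0%), 183 had an unadjusted p under 0.05 (1.79%) and 577 did not overlap (5.65%). DESeq2 called 2 genes in the endothelial gate, Igfbp5 and NOTCH3, and 0 in each of the others, with 75, 154 and 43 genes at an unadjusted p under 0.05. The genes below are therefore given as values. They were taken from the 10 with the smallest p in each gate (9 of them in the endothelial gate) and from members of gene lists, and none but NOTCH3 and Igfbp5 was called by either tool in these fits. Over all genes tested, the log2 fold change had a median of 0.0065, 0.011 and 0.0026 in the endothelial, microglia and smooth muscle gates.

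In endothelial cells the smallest p belonged to Igfbp5, which encodes a secreted protein that binds insulin-like growth factors (chr1:72857932-72874884). It stood at 10.9, 15.7 and 9.56 CPM in R182C-TgN3 mice and 5.65, 4.05 and 3.21 CPM in WT-TgN3 mice, without overlap, for a log2 fold change of 1.50 ± 0.22 (95% interval 0.98 to 2.02, unadjusted p = 0.000226). The edgeR adjusted p was 1.00 and that of DESeq2 0.00105, the only one of 17 alternatives in which it passed. Postn, Aebp1 and Spp1 also had higher mean values in R182C-TgN3 mice. Postn, for periostin, was at 1.4, 4.12 and 2.97 CPM against 0.941, 0.393 and 0.431 CPM, a log2 fold change of 2.31 ± 0.56. Aebp1, for a collagen-binding protein, was at 5.41, 3.65 and 4.37 CPM against 2.27, 1.14 and 2.16 CPM, a log2 fold change of 1.30 ± 0.35. Spp1, for osteopontin, was at 2.25, 1.59 and 7.84 CPM against 0.784, 0.983 and 2.03 CPM (log2 fold change 1.43 ± 0.33), and here R182C-TgN3 2 lay below WT-TgN3 3. These 4 genes were low in this gate, and its fibroblast markers summed to 26.1, 29.2 and 63.6 CPM against 37.9, 9.24 and 25.5 CPM. Whether cells of that type had a part in their values was not tested.

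Genes with lower endothelial values in R182C-TgN3 mice differed by smaller steps. Ldb2, for a LIM domain binding factor of endothelial transcription complexes (chr5:44472132-44799680), was at 120.5, 135 and 112 CPM in R182C-TgN3 mice and 193, 164 and 166 CPM in WT-TgN3 mice (log2 fold change -0.51 ± 0.12, unadjusted p = 0.0032). Slc8a1, for a sodium-calcium exchanger, was at 71.1, 56.8 and 68.5 CPM against 83.6, 82.3 and 115 CPM (log2 fold change -0.50 ± 0.13). Atp8a2, for a phospholipid flippase, was at 15.9, 13.6 and 17.4 CPM against 18.4, 22.5 and 29.7 CPM (log2 fold change -0.57 ± 0.14). In these 3 genes the groups did not overlap, and WT-TgN3 3 was the highest mouse for both transporters. Ccn3, for a matricellular protein that binds Notch, was at 25.6, 23.2 and 12.6 CPM against 29.5, 35 and 22.8 CPM (log2 fold change -0.55 ± 0.14) and overlapped. The 5 oligodendrocyte markers summed to 6.93, 6.65 and 10.5 CPM against 9.88, 7.74 and 19.1 CPM.

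The endothelial lists of Notch, barrier and matrix genes had medians near that of all genes. Of the Notch receptors, ligands and targets, 0 of 31 passed, 22 were lower in R182C-TgN3 mice and 9 higher, and their median log2 fold change was -0.02. Within the first and the second date 13 and 15 of 31 were higher, and without R182C-TgN3 2 it was 16 of 31, with a median of 0.0097. The smallest p in the list were those of Maml3, a coactivator of the Notch complex, at 131, 132 and 117 CPM against 143, 149 and 171 CPM (log2 fold change -0.28 ± 0.12), of the ligand Dll4 (-0.19 ± 0.11) and of the endothelial receptor Notch4 (-0.13 ± 0.10). Maml3 and Dll4 did not overlap between genotypes, 2 of 31 members against 3.31% of all genes. Of the blood-brain barrier transporters and junction proteins 0 of 29 passed, with a median of 0.0032. Here the transferrin receptor Tfrc had the smallest p, with 369, 415 and 335 CPM against 326, 354 and 278 CPM (log2 fold change 0.23 ± 0.12), ahead of the transporters Slco2b1 (-0.16 ± 0.13) and Abcc4 (-0.14 ± 0.16). Cldn5, Flt1 and Itm2a, on which the cells were chosen, ranged over 4585 to 6333, 5385 to 6906 and 2219 to 3189.7 CPM per mouse.

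Genes of endothelial activation and adhesion had a higher median, 0.21, with 15 of 20 higher in R182C-TgN3 mice, 0 passed and 0 without overlap. Ch25h, for cholesterol 25-hydroxylase, was at 21.7, 10 and 27.9 CPM against 13.1, 11.5 and 14.3 CPM (log2 fold change 0.59 ± 0.28), and the chemokine Cxcl1 at 43.1, 16.6 and 46.7 CPM against 23.7, 17.8 and 29.8 CPM (0.58 ± 0.32). In both genes R182C-TgN3 1 and 3 were the highest mice and R182C-TgN3 2 the lowest. Without R182C-TgN3 1 only 7 of 20 members were higher and the median was -0.08, and with barcodes shared between libraries left out 11 of 20 were higher and it was 0.14. The selectin Selp was at 6.8, 7.68 and 7.96 CPM against 9.96, 5.15 and 44.3 CPM, where a single WT-TgN3 mouse stood apart. Proteins of the vascular matrix and of NOTCH3 deposits had a median of 0.02 over 28 genes, of which 15 were higher, and the members with the smallest p were Apod (0.26 ± 0.15), Vtn (0.34 ± 0.20) and Sparcl1 (0.14 ± 0.15).

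In microglia the smallest p belonged to Negr1, which encodes a cell adhesion protein best known from neurons (chr3:156561794-157316445). It was at 5.73, 18.9 and 5.78 CPM in R182C-TgN3 mice, from 24, 45 and 33 UMIs, and at 104, 37.8 and 83.2 CPM in WT-TgN3 mice, from 339, 100 and 683 UMIs. All R182C-TgN3 mice lay below all WT-TgN3 mice, and the level ranged widely within each genotype. The log2 fold change was -3.11 ± 0.44 (95% interval -4.08 to -2.13, unadjusted p = 2.2e-05), and the edgeR adjusted p was 0.23. Within the first date the log2 ratio of means was -2.53 and within the second -3.85. Of the 17 alternative fits, 6 gave Negr1 an adjusted p under 0.05, among them those without R182C-TgN3 2 (edgeR adjusted p = 0.00483) and without WT-TgN3 2 (0.00661), and the adjusted p ranged from 2.75e-17 with no filter on low counts to 1.00. The fits without R182C-TgN3 3 or WT-TgN3 3 both rest on the mice of the first date. Their edgeR adjusted p was 1.00 and their log2 fold changes were -2.69 and -2.68. In endothelial cells Negr1 had a log2 fold change of -1.08 ± 0.59 (unadjusted p = 0.11), and in smooth muscle cells it was too rare to be tested.

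The class II antigen presentation genes H2-Eb1 and H2-Aa were lower in R182C-TgN3 mice on average, and 1 WT-TgN3 mouse held much of the difference. H2-Eb1 stood at 68.3, 46.7 and 14.2 CPM in R182C-TgN3 mice and 62.5, 323 and 74.5 CPM in WT-TgN3 mice (log2 fold change -1.92 ± 0.46). H2-Aa stood at 51.1, 39.9 and 14 CPM against 47.4, 259.8 and 62.8 CPM, a log2 fold change of -1.86 ± 0.46. H2-Ab1, their neighbour on chromosome 17, which was chosen after its values were seen, was at 70.9, 57.6 and 24 CPM against 54.8, 331 and 66.6 CPM (-1.53 ± 0.46). WT-TgN3 2 was by far the highest mouse in all 3 genes and R182C-TgN3 3 the lowest, and the genotypes overlapped. Without WT-TgN3 2 the log2 fold changes were -1.08, -0.98 and -0.54. Markers of perivascular macrophages (Mrc1, Cd163, Pf4, Lyve1 and F13a1) summed to 33.4, 59.7 and 17.3 CPM in R182C-TgN3 mice and 24.6, 155 and 38.2 CPM in WT-TgN3 mice in this gate, highest in the same mouse, and their part in these values was not tested. Apoe, whose product carries lipids, was also highest there, at 672, 1081 and 656 CPM against 514, 1832 and 679.6 CPM, with a log2 fold change of -0.30 ± 0.35 that turned to 0.40 without that mouse.

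Actl6a, Dnlz, Prox1 and Dlc1 differed in microglia by smaller steps than the class II genes. Actl6a, for a subunit of chromatin remodelling complexes (chr3:32706298-32726973), was at 35.3, 34 and 36.1 CPM in R182C-TgN3 mice and 20.3, 20 and 22.7 CPM in WT-TgN3 mice (log2 fold change 0.74 ± 0.13, unadjusted p = 0.000197, edgeR adjusted p = 0.99). Dnlz, for a mitochondrial chaperone-binding protein, was at 20.1, 18.5 and 27.1 CPM against 12.9, 12.5 and 16.3 CPM (0.66 ± 0.16). Olr1, for a scavenger receptor of oxidized lipoproteins, was at 4.3, 5.04 and 3.68 CPM against 1.23, 0.756 and 1.46 CPM (1.76 ± 0.44), from 18, 12 and 21 against 4, 2 and 12 UMIs. The groups did not overlap in these 3 genes. They did not overlap either in Prox1, for a transcription factor, at 30.8, 26.1 and 20.3 CPM against 35.7, 48.8 and 34.9 CPM (-0.64 ± 0.16), or in Dlc1, for a GTPase activating protein, at 131, 148 and 130.2 CPM against 200.2, 167 and 211 CPM (-0.50 ± 0.13). The histone gene Hist1h2ap was at 51.8, 29.8 and 65.6 CPM against 19.4, 31 and 18.5 CPM (1.17 ± 0.27). It overlapped, and reads of near-identical histone copies may be split between them. Hba-a2, for alpha globin, was at 1.19, 3.36 and 93.5 CPM against 3.7, 2.27 and 8.28 CPM, and a single mouse made its log2 fold change of 2.48 ± 0.65, which was -0.53 without R182C-TgN3 3.

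Of the homeostatic genes 0 of 20 passed, 16 were higher in R182C-TgN3 mice and the median log2 fold change was 0.08. Without WT-TgN3 2, 9 of 20 were higher and the median was -0.016. Gpr34 (0.21 ± 0.13), Mertk (-0.16 ± 0.13) and Crybb1 (0.16 ± 0.15) had the smallest p. P2ry12 and Cx3cr1, on which the cells were chosen, ranged over 1484 to 2078 and 2547 to 3739.6 CPM per mouse. Of the genes of disease-associated microglia 0 of 26 passed, 21 were higher and the median was 0.14. The lysosomal membrane gene Cd63 had the smallest p, at 321, 351 and 423 CPM against 247, 309 and 354 CPM (0.27 ± 0.12, unadjusted p = 0.0455), and overlapped. Clec7a, a pattern receptor, was at 22.9, 53.8 and 17.7 CPM against 16.9, 21.2 and 23.5 CPM (0.44 ± 0.33), and Cst7, a protease inhibitor, at 3.58, 34.5 and 5.95 CPM against 2.77, 6.05 and 6.33 CPM (1.21 ± 0.71). In both, R182C-TgN3 2 was the highest of the 6 mice. Without it the log2 fold changes were -0.05 and -0.17, and 15 of 26 members of the list were higher. Ccl6 had a log2 fold change of 0.24 ± 0.14.

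Of the inflammatory cytokines and chemokines in microglia 0 of 23 passed, 16 were higher and the median was 0.13. Only Ccl5 did not overlap between genotypes, 1 of 23 members (4.35%) against 7.52% of all genes. Ccl5, a chemokine for T cells, was at 36.1, 8.83 and 7 CPM in R182C-TgN3 mice and 6.16, 0.756 and 5.11 CPM in WT-TgN3 mice, without overlap, for a log2 fold change of 1.79 ± 0.62, and R182C-TgN3 1 alone stood far above the others. Markers of T and NK cells summed to 6.69, 0.841 and 3.68 CPM and 0.616, 1.13 and 4.63 CPM, highest in the same mouse, and their part in the Ccl5 values was not tested. The chemokine genes with the next smallest p, Ccl9 (0.33 ± 0.14) and Ccl7 (0.32 ± 0.15), overlapped. Interferon-stimulated genes had a median of 0.0093, with 11 of 21 higher and none passing, and Rtp4 (0.39 ± 0.27), Isg15 (0.28 ± 0.20) and Usp18 (0.47 ± 0.36) had the smallest p. Among hypoxia and glycolysis genes 3 of 25 did not overlap, Eno1 and Ndrg1 among them, against 7.52% of all genes. The glycolytic gene Eno1 was at 56.4, 54.6 and 75.6 CPM against 29.9, 52.2 and 44 CPM (0.58 ± 0.18), and the count of Eno1 is uncertain because near-identical copies lie elsewhere in the genome. Ndrg1 was at 2.87, 4.2 and 3.15 CPM against 5.85, 5.67 and 5.85 CPM (-0.80 ± 0.34), and Bnip3, for a mitophagy receptor, had a log2 fold change of 0.37 ± 0.16.

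Genes of the smooth muscle contractile apparatus were lower in the microglia gate of R182C-TgN3 mice in 20 of 23 members, with a median of -0.49 and 0 passing. The smallest p were those of Des (-1.04 ± 0.54), Tagln (-1.36 ± 0.73) and Myh11 (-0.95 ± 0.59). Tagln was at 4.54, 31.1 and 36.2 CPM against 8.01, 115 and 55.4 CPM, and WT-TgN3 2 and 3 had the highest levels. Without WT-TgN3 2, 15 of 23 members were higher and the median was 0.04, while within the first and the second date it was -0.35 and -0.33. The 10 smooth muscle markers summed to 50.9, 198 and 187 CPM against 48, 510.1 and 272 CPM in this gate. They are all members of this list, so their sum is no separate measure of it. The part of smooth muscle transcripts in these values was not tested.

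In smooth muscle cells, after NOTCH3, the smallest p belonged to Sdf2l1, which encodes an endoplasmic reticulum protein of the chaperone machinery (chr16:17130138-17132383). It was at 16, 20.7 and 11.7 CPM in R182C-TgN3 mice and 5.17, 5.02 and 2.85 CPM in WT-TgN3 mice, from 30, 12 and 23 against 5, 14 and 4 UMIs. The groups did not overlap, and the log2 fold change was 1.84 ± 0.37 (95% interval 1.05 to 2.64, unadjusted p = 0.000209, edgeR adjusted p = 1.00). Of the endoplasmic reticulum stress genes 0 of 25 passed and 17 were higher, with a median of 0.24. It was 0.35 within the first date and 0.08 within the second, and without WT-TgN3 2 it was 0.06, with 15 of 25 higher. The list's other small p were those of the disulfide isomerase Pdia6, at 126, 93 and 107 CPM against 64.1, 72 and 98.3 CPM (0.50 ± 0.21), and of Asns, for asparagine synthetase, at 13.4, 12.1 and 11.2 CPM against 7.24, 5.02 and 8.55 CPM (0.88 ± 0.37). In this list 3 of 25 members did not overlap, Sdf2l1 and Asns among them and all higher in R182C-TgN3 mice, against 5.65% of all genes. Sdf2l1 also had a log2 fold change of 0.30 ± 0.13 in microglia (unadjusted p = 0.04) and 0.33 ± 0.21 in endothelial cells (unadjusted p = 0.16). The gates come from the same mice, so these values are not independent.

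Enpp5, Prxl2a and Zbtb16 did not overlap between the genotypes in this gate. Enpp5, for a membrane phosphodiesterase, was at 29.9, 25.8 and 26 CPM in R182C-TgN3 mice and 11.4, 12.9 and 12.8 CPM in WT-TgN3 mice (log2 fold change 1.14 ± 0.27). Prxl2a, for a thioredoxin-like redox protein, was at 38.5, 32.7 and 30.6 CPM against 22.7, 15.8 and 15 CPM (1.00 ± 0.25). Zbtb16, for a transcription factor induced by glucocorticoids (chr9:48654297-48836222), was at 25.6, 25.8 and 22.9 CPM against 67.2, 53.4 and 34.9 CPM (-1.0 ± 0.24, unadjusted p = 0.000864). The WT-TgN3 mice were spread widely in Zbtb16, and WT-TgN3 3 lay closest to the R182C-TgN3 mice. All 3 genes had the same direction in each of the 17 alternative fits. Those fits reuse the same mice, and groups that do not overlap can hardly turn when 1 mouse is left out, so this is no separate support. In the mice of 9 months all 3 genes had the opposite direction.

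Other genes of this gate with small p were highest in R182C-TgN3 1 or 3, the mice with the most choroid plexus transcripts in this gate. Ecrg4, an abundant gene of choroid plexus, was at 106, 0 and 15.8 CPM in R182C-TgN3 mice and 7.24, 2.87 and 2.14 CPM in WT-TgN3 mice (3.70 ± 0.83). R182C-TgN3 2 had 0 UMIs of it, which allows up to 5.17 CPM (3 counts, counting error only). Mt3, for a metallothionein, was at 72.7, 0 and 15.3 CPM against 8.27, 1.07 and 0.712 CPM (3.83 ± 0.88), and its log2 fold change was 1.66 without R182C-TgN3 1. Trf, for transferrin, was at 35.3, 15.5 and 39.8 CPM against 8.27, 9.67 and 17.8 CPM (1.43 ± 0.31), and Ntrk2, for a neurotrophin receptor, at 32.6, 6.89 and 9.69 CPM against 5.17, 3.22 and 5.7 CPM (2.02 ± 0.53). The matrix gene Apod followed the same mice, at 67.3, 1.72 and 35.2 CPM against 17.6, 9.67 and 10.7 CPM (1.74 ± 0.55), with a log2 fold change of 0.56 without R182C-TgN3 1. R182C-TgN3 2, the mouse with the fewest choroid plexus transcripts in this gate, lay above each WT-TgN3 mouse in Ntrk2 but not in the other genes of this paragraph. Astrocyte markers (Aqp4, Gja1, Aldoc, Slc1a3, Slc1a2 and Gfap) summed to 78.5, 10.3 and 16.3 CPM against 11.4, 11.5 and 49.9 CPM. The part of choroid plexus or astrocyte transcripts in these values was not tested.

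Genes of activation and adhesion were higher in the smooth muscle gate of R182C-TgN3 mice in 10 of 11 members, with a median of 0.41 and 0 passing. The chemokine Cxcl1 was at 28.9, 10.3 and 31.1 CPM against 9.31, 2.15 and 9.97 CPM (2.04 ± 0.45) and the adhesion molecule Vcam1 at 203, 68.9 and 189.6 CPM against 79.6, 42.6 and 96.2 CPM (1.17 ± 0.32), and Icam1 had a log2 fold change of 1.28 ± 0.49, which was 0.14 without R182C-TgN3 1. R182C-TgN3 1 and 3 were the highest mice in each, and R182C-TgN3 2 lay within the WT-TgN3 range for Vcam1 and Icam1. Without R182C-TgN3 1, 7 of 12 members were higher and the median was 0.05. With barcodes of more than 1 gate left out, only 4 members could be tested, 3 of them higher, with a median of 0.10. The share of cells that also passed another gate was highest in R182C-TgN3 1, at 55.8%, and was 35.1% in R182C-TgN3 3 and 42.1% in WT-TgN3 3. Blood-brain barrier genes of endothelial cells also leaned higher in this gate, with 23 of 28 higher in R182C-TgN3 mice and a median of 0.15. Without R182C-TgN3 1 it was 8 of 28 and -0.15, and with barcodes of more than 1 gate left out 5 of 13 and -0.04. The part of cells of more than 1 gate in these values was not tested.

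Interferon-stimulated genes had a median of 0.36 in smooth muscle cells, with 17 of 20 higher in R182C-TgN3 mice, 0 passing and 4 with an unadjusted p under 0.05, against 1.79% of all genes. Isg15 was at 82.3, 68.9 and 156 CPM against 81.7, 53 and 54.9 CPM (0.68 ± 0.27), and Ifit3 and Rtp4 had log2 fold changes of 0.88 ± 0.37 and 0.68 ± 0.30. R182C-TgN3 3 was the highest mouse in all 3. The list's median was 0.14 within the first date and 0.58 within the second, and with barcodes of more than 1 gate left out it was -0.07 over the 6 members still tested. Of the inflammatory cytokines and chemokines, 11 of 13 were higher with a median of 0.21, but it was 0.70 within the first date and -0.36 within the second, and without R182C-TgN3 1 only 6 of 12 were higher. Cd14, a receptor for bacterial lipopolysaccharide, was at 8.55, 8.61 and 6.63 CPM against 3.1, 1.79 and 4.27 CPM (1.44 ± 0.50) without overlap, Ptgs2, for a prostaglandin synthase, at 58.8, 1.72 and 52 CPM against 13.4, 16.5 and 31.3 CPM (1.07 ± 0.48), and Nfkbia had a log2 fold change of 0.41 ± 0.27. Without R182C-TgN3 1 the log2 fold changes of Ptgs2 and Nfkbia were 0.017 and 0.04. Among the inflammatory genes only Cd14 did not overlap, 1 of 13 members (7.69%) against 5.65% of all genes.

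Smooth muscle identity genes differed little. Acta2 (alpha smooth muscle actin) was at 8088, 8556 and 9826 CPM in R182C-TgN3 mice and 9081, 10642 and 7927 CPM in WT-TgN3 mice (log2 fold change -0.06 ± 0.21, 95% interval -0.51 to 0.39). The cells were chosen on Acta2, Tagln and Myh11, whose levels are bounded by that choice, and Tagln and Myh11 ranged over 5829 to 9211 and 3784 to 5724 CPM. Of the contractile genes 0 of 26 passed and 25 were lower, with a median of -0.10. The transcription cofactor Myocd, which drives the contractile programme, had the smallest p of the list, at 274, 293 and 184 CPM against 311, 362 and 309 CPM without overlap (-0.42 ± 0.21, unadjusted p = 0.0593). Myocd was the only 1 of the 26 members without overlap (3.85%), against 5.65% of all genes. Actg2 (-0.83 ± 0.44) and Smtn (-0.20 ± 0.19) overlapped. Fewer members were lower with other cells: 16 of 26 with barcodes of more than 1 gate left out, where the median was -0.01, and 15 of 26 without WT-TgN3 2, where it was -0.03. The median was -0.22 within the first date and 0.09 within the second.

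The ion channel and calcium handling genes of mural cells had a median of -0.08 in the smooth muscle gate, with 18 of 25 lower and 0 passing. It was 0.10 within the first date and -0.36 within the second. Without R182C-TgN3 3, a fit that also rests on the first date, only 6 of 24 were lower. Abcc9, a subunit of a potassium channel that is most abundant in pericytes, was at 25.6, 12.1 and 8.16 CPM against 4.14, 3.94 and 11.4 CPM (1.32 ± 0.52, and 0.37 without R182C-TgN3 1), and the cation channel Trpc6 had a log2 fold change of -0.57 ± 0.27. Of the Notch pathway 0 of 28 members passed and 17 were lower, with a median of -0.09 that turned to 0.04 without R182C-TgN3 1. Maml3, for a coactivator of Notch transcription complexes, was at 251, 272 and 180.0 CPM against 286, 293 and 289.9 CPM without overlap (-0.33 ± 0.20), and the receptor Notch4 had a log2 fold change of -0.42 ± 0.27. Maml3 was the only 1 of the 28 members without overlap (3.57%), against 5.65% of all genes. Vascular matrix genes had a median of -0.07 with 19 of 27 lower. Beside Apod, the elastic fibre gene Fbln5 (0.62 ± 0.22) and the basement membrane collagen Col4a3 (-0.39 ± 0.28) had the smallest p there.

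**Figure D3:**
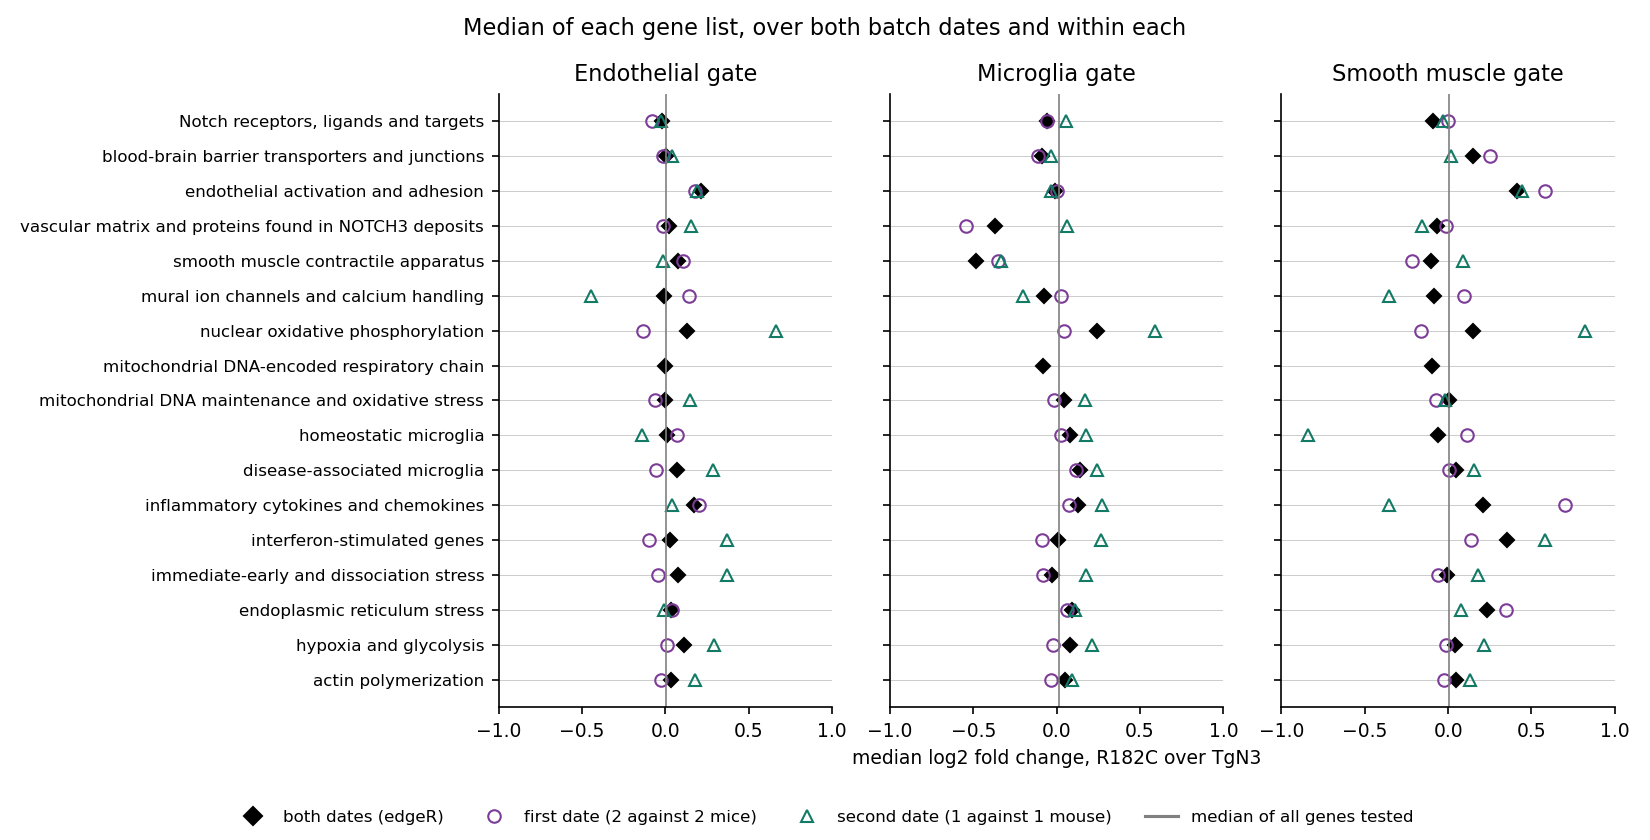
Median log2 fold change of R182C-TgN3 over WT-TgN3 (x axis) for each gene list (y axis) in the 3 gates, as black diamonds for the edgeR fit over both batch dates, circles for the first date (2 against 2 mice) and triangles for the second (1 against 1 mouse), with a grey line at the median of all genes tested. Genes of mitochondrial DNA have no value within dates. Nuclear oxidative phosphorylation lies at -0.14 and 0.66 within the dates in the endothelial gate and shows the widest gap between dates there.

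Nuclear genes of oxidative phosphorylation, which code for subunits of the respiratory chain complexes and ATP synthase, were mostly higher in R182C-TgN3 mice in all 3 gates over both batch dates, and in the endothelial and smooth muscle gates the direction turned between the dates. The members higher over both dates were 74 of 78 in endothelial cells, 76 of 77 in microglia and 71 of 78 in smooth muscle cells, with medians of 0.13, 0.24 and 0.15 and 0 passing in any. In microglia 14 of 77 had an unadjusted p under 0.05, against 3.43% of all genes, and 5 did not overlap (6.49%, against 7.52% of all genes). The microglial members with the smallest p were Uqcr11, at 90, 99.2 and 146 CPM against 70.5, 88.5 and 78.4 CPM (0.49 ± 0.16), Atp5o (0.36 ± 0.13) and Ndufa1 (0.47 ± 0.18). In endothelial cells they were Uqcrfs1 (0.18 ± 0.13), Ndufs1 (0.13 ± 0.10) and Cycs (0.19 ± 0.17), and in smooth muscle cells Ndufb4 (0.40 ± 0.22), Ndufa11 (0.40 ± 0.24) and Ndufa8 (0.32 ± 0.23).

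Within the second date the R182C-TgN3 mouse was above the WT-TgN3 mouse in 78 of 78, 77 of 77 and 78 of 78 members, with medians of 0.66, 0.59 and 0.82. Within the first date, of 2 against 2 mice, only 2 of 78, 54 of 77 and 9 of 78 were higher, with medians of -0.14, 0.04 and -0.16. In the fits without R182C-TgN3 3, 2 of 78, 53 of 77 and 6 of 78 members were higher. Without WT-TgN3 3 they were 1 of 78, 53 of 77 and 6 of 78. Both fits rest on the same 2 against 2 mice as the values within the first date, so they are not separate checks. In endothelial and smooth muscle cells the direction over the first date was thus the opposite of that over both dates.

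The summed levels by mouse show the same. In endothelial cells the list summed to 14298, 12715 and 19306 CPM in R182C-TgN3 mice and 13264, 16744 and 11909.8 CPM in WT-TgN3 mice, and in smooth muscle cells to 19819, 19210.2 and 28727 CPM and 18392, 25727 and 16524 CPM. In both gates R182C-TgN3 3 was the highest mouse, WT-TgN3 2 the second and WT-TgN3 3 the lowest. Microglia had 6750.3, 6461 and 9605 CPM and 6015, 6746 and 6436 CPM. The share of UMIs on ribosomal protein genes, left out of the CPM, was 6.69, 5.86 and 8.69% against 5.71, 7.77 and 5.22% in the endothelial gate, 4.11, 3.84 and 5.51% against 3.46, 4.33 and 3.77% in the microglia gate and 6.59, 5.6 and 8.85% against 5.48, 7.18 and 5.12% in the smooth muscle gate. It was also highest in R182C-TgN3 3 in each gate and lowest in WT-TgN3 3 in the endothelial and smooth muscle gates, and its part in the list's values was not tested.

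**Figure D4:**
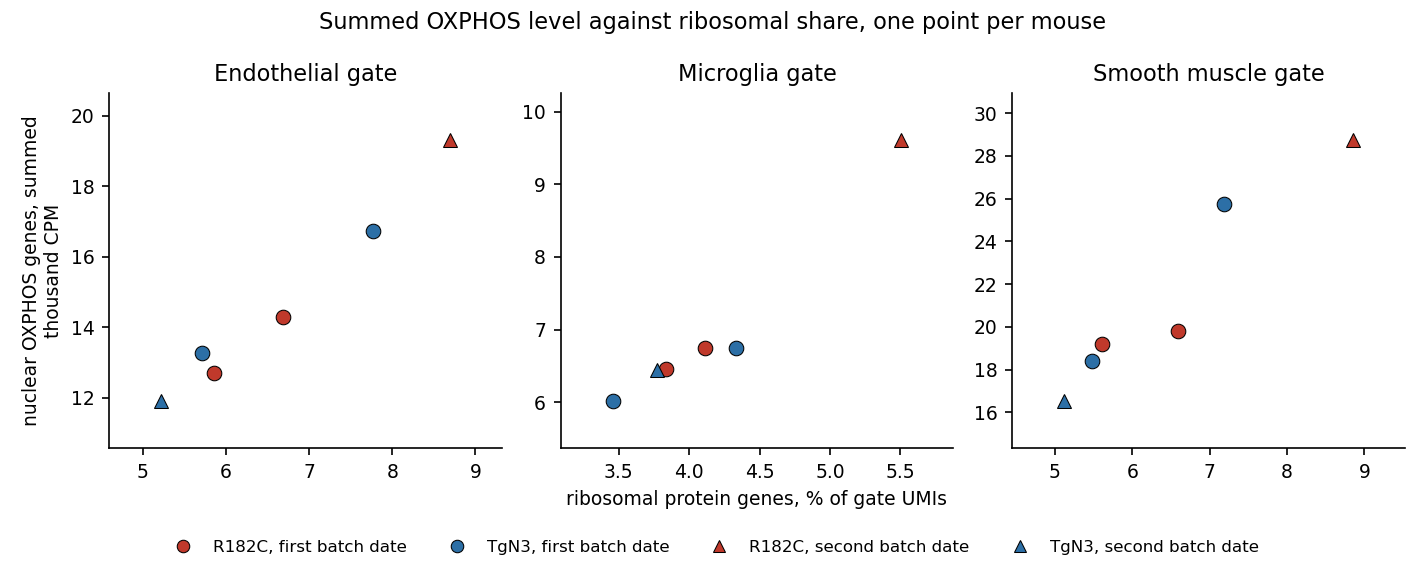
Summed level of the nuclear oxidative phosphorylation (OXPHOS) genes in units of 1000 CPM (y axis, not from 0) against the percentage of UMIs on ribosomal protein genes (x axis) in the 3 gates, with 1 point per mouse, circles for the first batch date and triangles for the second. R182C-TgN3 3 is the highest mouse on both axes in each gate, and the 4 mice of the first date do not separate by genotype in the endothelial gate.

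Genes of mitochondrial DNA were read from a fit that kept them. Cells were kept for a mitochondrial share of no more than 10%, so these levels are bounded by that choice and are given as a description. Of 13 genes, 6 were higher in R182C-TgN3 mice in endothelial cells, 0 in microglia and 2 in smooth muscle cells, with medians of -0.0038, -0.08 and -0.09. Polg2, for the accessory subunit of the polymerase that copies mitochondrial DNA, was at 84.4, 112 and 81.9 CPM against 104, 89.8 and 96.3 CPM in endothelial cells, 31.3, 45.8 and 31.7 against 34.8, 40.5 and 34 CPM in microglia and 41.7, 60.3 and 31.6 against 36.2, 37.6 and 55.6 CPM in smooth muscle cells. Its log2 fold changes were -0.07 ± 0.14, -0.03 ± 0.16 and -0.03 ± 0.27, and the genotypes overlapped in each gate. Genes of mitochondrial DNA maintenance and oxidative stress had medians of -0.0026, 0.04 and 0.008. The dissociation stress genes, which rise when tissue is taken apart, had medians of 0.08, -0.03 and -0.0042 and no call, and those of actin polymerization 0.03, 0.05 and 0.05. In each gate, the medians of these last 3 lists took both signs over the alternatives.

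The same gates were set beside the 5 mice of 9 months. The ranking by p at 6 months did not use these mice, while the gene lists were written with earlier results of these data known. At that age 2 R182C-TgN3 and 2 WT-TgN3 mice had one batch date, and the third R182C-TgN3 mouse had a date of its own, so that in a fit with batch date it carries no weight in the genotype difference. In smooth muscle cells NOTCH3 was at 227, 316 and 306 CPM in the R182C-TgN3 mice and 80.5 and 41 CPM in the WT-TgN3 mice at 9 months, a log2 fold change of 2.12 ± 0.51 (unadjusted p = 0.00115). In endothelial cells it was 2.38 ± 0.56 (unadjusted p = 0.00225). The difference between ages was -0.33 ± 0.66 and 0.62 ± 0.69, with unadjusted p of 0.63 and 0.40. Ldb2 in endothelial cells had -0.49 ± 0.15 at 9 months (unadjusted p = 0.0121), close to its 6-month value, and Ccn3 had -0.45 ± 0.20.

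Of the genes named for the smallest p, 4 of 9 had the same direction at 9 months in endothelial cells, 5 of 10 in microglia and 4 of 10 in smooth muscle cells. Igfbp5, the endothelial gene with the smallest p at 6 months, had -4.31 ± 1.23 at 9 months, where 1 WT-TgN3 mouse stood far above all others (7.27 and 176 CPM in WT-TgN3 mice and 1.84, 7.63 and 6.79 CPM in R182C-TgN3 mice). Negr1 in microglia had -0.78 ± 0.49, with 12.9, 15.5 and 9.72 CPM against 20.5 and 27.1 CPM, so that the R182C-TgN3 mice were again below both WT-TgN3 mice. Zbtb16 in smooth muscle cells had 1.23 ± 0.38 (unadjusted p = 0.00701), the opposite sign. Sdf2l1 had -0.18 ± 0.42 and Actl6a in microglia -0.14 ± 0.15. Cd14 in smooth muscle cells, a member of the inflammatory list and not one of these 10, had 1.92 ± 0.49 at 9 months (edgeR unadjusted p = 0.00171) and no overlap. The 9-month values of the other members of that list are not given, so its direction is that of 1 gene only.

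The test of the difference between ages, in 1 fit over all 11 mice, called 0 of 14558 genes in the endothelial gate (0%), 0 of 12038 in the microglia gate (0%) and 0 of 11043 in the smooth muscle gate (0%) with edgeR. An unadjusted p under 0.05 was reached by 245, 320 and 258 genes, and DESeq2 called 5 (Epcam, Fabp4, Hbb-y, Ly6h and Selp), 2 (Mia and Mid1) and 1 (Lyz2). The differences between ages for the genes above therefore did not pass: for Igfbp5 it was -5.80 ± 1.56 (unadjusted p = 0.0051), for Negr1 2.31 ± 0.67 (unadjusted p = 0.00525) and for Zbtb16 2.22 ± 0.53 (unadjusted p = 0.00108), with edgeR adjusted p of at least 0.99 for each.

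**Figure D5:**
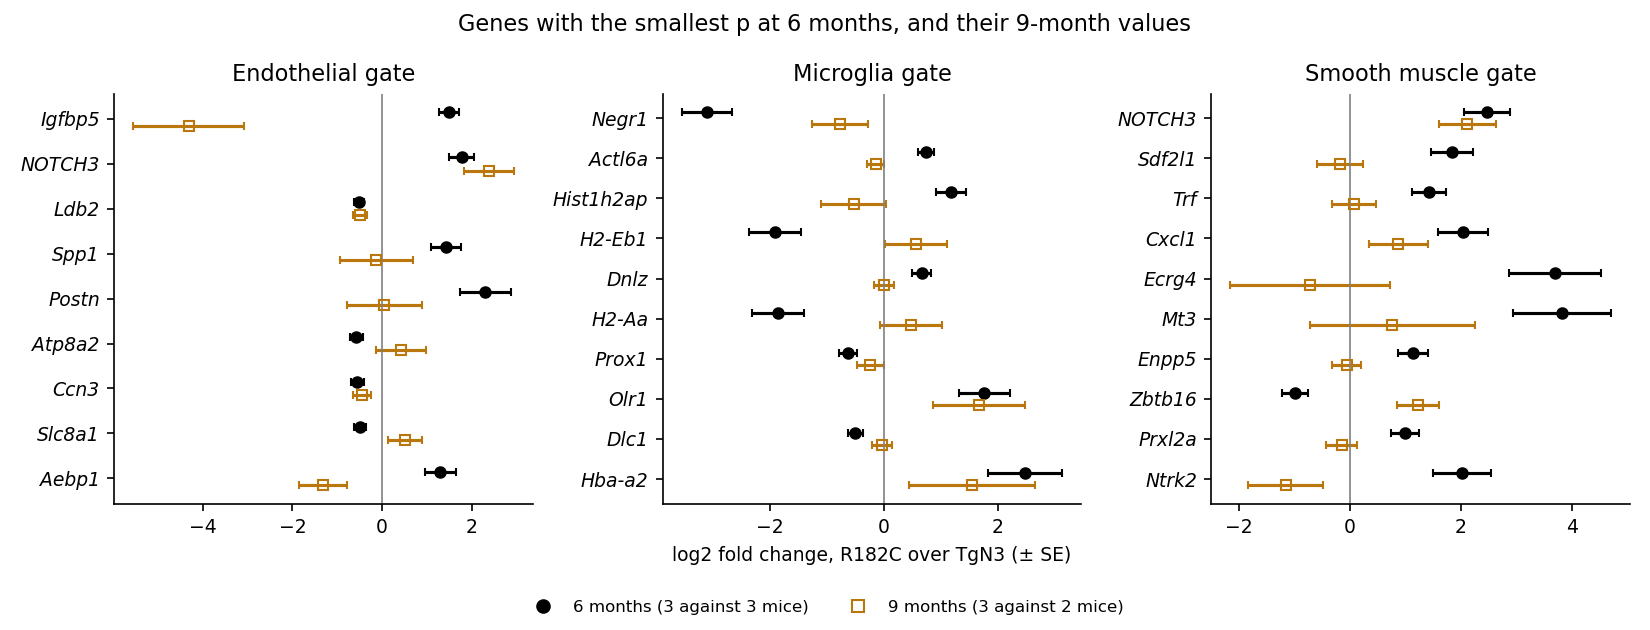
Log2 fold change of R182C-TgN3 over WT-TgN3 (x axis, ± SE) for the genes named for the smallest p at 6 months, 9 in the endothelial gate and 10 in each other gate (y axis), as black points for 6 months and open squares for 9 months, where the R182C-TgN3 mouse with a batch date of its own carries no weight. NOTCH3 stands between 1.77 and 2.47 at both ages in the endothelial and smooth muscle gates, while 6 of 10 genes of the smooth muscle gate have the opposite sign at 9 months.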

How the data were processed

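Single-cell RNA libraries of CD31-captured cerebrovascular cells, 1 per mouse, were aligned and counted by the authors with Cell Ranger 7.0.0 on mm10 with the human NOTCH3 sequence added. The deposited counts are whole UMIs per gene and barcode after Cell Ranger's cell calling, neither normalized nor corrected for free RNA. No doublet caller was run here, and barcodes in more than 1 gate were left out in an alternative. Gates were applied as described in the results, UMIs were summed per mouse and gate, and ribosomal, mitochondrial, Gm and Rik genes were removed, as in the study's own pseudobulk method. Genes that passed filterByExpr were tested with edgeR 4.0.16 (R 4.3.3; TMM, glmQLFit, glmQLFTest) in a model of batch date and genotype, with Benjamini-Hochberg adjustment at 0.05, after a check of the script on simulated counts. The comparison of ages used all 11 mice, with batch date and a genotype term for each age. Standard errors are the fold change divided by the root of F. Shares were compared by an exact two-sided permutation test within dates. Where genes are named, they are the 10 with the smallest p per gate and the 3 with the smallest p of a gene list, beside the transgene, Notch3, Acta2, Apoe, Clec7a and Polg2. A few genes that meet this rule are not reported here. The members and lists were chosen with earlier results of these data known. Alternatives were DESeq2 1.42.0, its size factors, no low-count filter, other cell filters, other blocks, the removed genes kept, each mouse left out and, added after seeing the data, barcodes shared between libraries left out. The labels give separate mice, so p-values measure the spread between these mice, and 3 mice per genotype and the depth given in the results limit what could be called. Intervals of shares cover counting error only. Gene positions are those of GENCODE vM21 on mm10, which may differ in part from the annotation the authors used.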

Additional observations from a re-analysis of the deposited data

How the results depend on the processing

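The count of 0 genes called by edgeR in the endothelial gate at 6 months held in all alternatives but DESeq2, which called 2 (Igfbp5 and NOTCH3). In the microglia gate 1 gene, Negr1, was called with at most 5% mitochondrial UMIs, with barcodes of more than 1 gate left out and with batch date and sex in the model, and 25 were called with no filter on low counts. With 1 mouse left out the microglial count ranged from 0 to 3, the 3 being H2-Aa, H2-Ab1 and H2-Eb1 without WT-TgN3 1, and 1 gene, Negr1, was called without R182C-TgN3 2 or WT-TgN3 2. In the smooth muscle gate 8 genes were called with at most 5% mitochondrial UMIs, a fit that lacked R182C-TgN3 2 for its 18 such cells. There, 1 (NOTCH3) was called with barcodes of more than 1 gate left out, 1 (NOTCH3) with batch date and sex, and 93 with no filter on low counts. With 1 mouse left out the count ranged from 0 to 17. The 17 came without R182C-TgN3 2 and included Ttr, Enpp2 and Kl of choroid plexus, 6 came without WT-TgN3 1, 4 without R182C-TgN3 1 and 1 without WT-TgN3 2, and NOTCH3 was among the called genes in the last 3 of these. The cause of these changes was not tested. The difference between ages had 0 calls with edgeR, but 5, 2 and 1 with DESeq2 in the endothelial, microglia and smooth muscle gates, and 82 and 86 in the microglia and smooth muscle gates with no filter on low counts. With 1 mouse left out its count ranged from 0 to 4 in the endothelial gate and from 0 to 3 in the smooth muscle gate, highest in both without the 9-month WT-TgN3 1, and it was also 1 in the smooth muscle gate without the 9-month R182C-TgN3 2 or WT-TgN3 2.

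The replicate numbers of the labels name no shared litter or donor. Mice with the same number had the same batch date, and the pair of the second date also the same sex. They did not deviate together in every pair. Correlations of deviations over genes ran from -0.085 to 0.219 in the endothelial gate, 0.0535 to 0.272 in the microglia gate and -0.0582 to 0.0339 in the smooth muscle gate. So few pairs cannot show whether such mice had anything else in common. With the number as a replicate block, 0 genes were called in the endothelial and microglia gates and 1, NOTCH3 (edgeR adjusted p = 0.00122), in the smooth muscle gate.

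With 1 mouse left out, the difference in the share of barcodes in the microglia gate ranged from -10.3 to 0.953 percentage points, the last without WT-TgN3 3. That in the share of barcodes in the smooth muscle gate ranged from -1.17 to 0.531 points, the last without WT-TgN3 2, and was also above 0 without R182C-TgN3 2 (0.445) and 0.424 with at most 5% mitochondrial UMIs.

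Of the named genes, the log2 fold change of Acta2 in smooth muscle cells was 0.044 with at most 5% mitochondrial UMIs and 0.037 with barcodes of more than 1 gate left out. Polg2 turned to 0.021 in microglia with at most 5% mitochondrial UMIs, and in smooth muscle cells to 0.0035 with DESeq2 and 0.094 with barcodes of more than 1 gate left out. Smtn turned to 0.049 in smooth muscle cells with at most 5% mitochondrial UMIs. That setting left R182C-TgN3 2 out of the smooth muscle fits. With 1 mouse left out, these named genes crossed 0: Acta2 (-0.26 to 0.059), Notch3 (-0.36 to 0.091) and Polg2 (-0.25 to 0.39) in smooth muscle cells, Apoe (-0.65 to 0.40), Clec7a (-0.053 to 0.96), Cst7 (-0.17 to 2.05), Hba-a2 (-0.59 to 3.08) and Polg2 (-0.19 to 0.10) in microglia, and Cycs (-0.036 to 0.37), Polg2 (-0.21 to 0.021) and Uqcrfs1 (-0.00092 to 0.27) in endothelial cells. The other genes for which alternatives were run kept their direction in each alternative that gave a value, between 13 and 17 per gene. Of the genes named, 22 were past the threshold with no filter on low counts. The smooth muscle gate of R182C-TgN3 2, with 80 cells, is the thinnest sum, so a low gene there rests on few UMIs.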

Other observations

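Several gene lists that are not typical of the gate they were measured in leaned to one side without any member passing the edgeR threshold. In the microglia gate, 12 of 16 vascular matrix genes were lower in R182C-TgN3 mice (median log2 fold change -0.37) and 3 did not overlap, against 7.52% of all genes, and 19 of 26 blood-brain barrier genes were lower, with a median of -0.09. The matrix median was -0.54 within the first batch date and 0.06 within the second, and without WT-TgN3 2 it was -0.056. Notch genes there had a median of -0.06, mural ion channel genes -0.07 and activation genes -0.01. In the smooth muscle gate, the median of homeostatic microglial genes was -0.06 over 16 genes and that of disease-associated microglial genes 0.05 over 18. The microglial markers of that gate summed to 586, 644 and 607 CPM in R182C-TgN3 mice and 495, 631 and 757 CPM in WT-TgN3 mice.

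Stress and energy lists had small medians in the other gates. Endoplasmic reticulum stress genes were higher in 21 of 27 in endothelial cells (median 0.03) and in 19 of 25 in microglia (median 0.09). Hypoxia and glycolysis genes were higher in 20 of 27, 14 of 25 and 13 of 25 in the endothelial, microglia and smooth muscle gates. In the endothelial gate, inflammatory genes had a median of 0.17, interferon-stimulated genes 0.03, contractile genes 0.08, mural ion channel genes -0.0052, homeostatic microglial genes 0.013 and disease-associated microglial genes 0.07. None of these genes passed. Over the alternatives the endothelial median of the inflammatory genes ranged from -0.11 to 0.32 and that of the contractile genes from -0.35 to 0.33, and both were lowest without R182C-TgN3 1. The medians of the other endothelial lists in this paragraph took both signs as well.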
